A study of Mus musculus with 12 samples.

Results

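The transcripts of 7 ion channel subunits were followed in primary mouse cardiomyocytes treated with cytokines of the interleukin-6 family. The subunits were the sodium channel genes Scn4b and Scn4a, the calcium channel genes Cacna1c, Cacna1g, Cacnb2 and Cacna2d1, and the pacemaker channel gene Hcn2, which carries sodium and potassium and stands beside the others as a channel of the same membrane. They were taken by gene symbol, and 7 of the 22915 genes in the table carried one of the names. The cells came from adult male C57/Bl6 mice of 12 weeks and were kept for 24 h in normoxia with PBS, mouse LIF (mLIF), mouse OSM (mOSM) or human-like OSM (hlOSM). The last is mouse OSM with the AB loop of the human protein, which lets it engage the LIF receptor besides the OSM receptor, whereas mLIF uses the LIF receptor and mOSM the OSM receptor. The labels give each cytokine at 25 ng per mL, the study's methods give a lower concentration, and PBS was the vehicle. Each condition has 3 RNA libraries, which makes 12. The methods speak in passing of biological replicates, but no source used here states whether the libraries came from separate mice or preparations, so that p-values measure the spread between these libraries. The replicate number accounts for less of that spread than any other numbering of the libraries would, as in values from which an effect of it has been subtracted. No source used here names such a step, and where it was taken the p-values given here tend to be too small. Values are normalized counts, scaled between libraries and rounded to whole numbers by the authors. They added up to between 2745748 and 2911891 per library, which is not the number of reads, and how many reads stand behind a value cannot be told.

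The action potential of a cardiomyocyte begins with sodium entering through sodium channels. Scn4a encodes the pore of the form best known from skeletal muscle, and Scn4b a small auxiliary subunit that modulates such pores. Calcium then enters through the L-type channel, with Cacna1c as its pore, the cytoplasmic subunit Cacnb2 and the extracellular subunit Cacna2d1, and it triggers contraction. Cacna1g forms a low-voltage T-type channel, known from pacemaker tissue and the fetal heart, and the HCN channels carry the pacemaker current.

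The filter asked for 10 or more normalized counts in 3 or more libraries, and 13184 genes passed it, among them all 7 members. Their levels in PBS, set side by side as normalized count per kb of merged exons, spread widely. Cacna2d1 stood at 124 ± 6.14 per kb (SD, n = 3), Cacna1c at 61.0 ± 2.82 and Scn4b at 61.0 ± 8.47. Below them came Cacnb2 with 25.5 ± 3.63 per kb, Hcn2 with 17.1 ± 0.478, Scn4a with 11.03 ± 1.14 and Cacna1g with 2.30 ± 0.827. The levels of Cacna1c and Scn4b differed by less than the spread between replicates, and the other steps of this order were wider than both SDs. With hlOSM, Scn4b lay below Cacna1c, at 23.0 ± 2.90 against 35.5 ± 1.58 per kb. Cacnb2 no longer stood above Hcn2 there, at 12.9 ± 1.27 against 12.9 ± 0.361.

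On mm10, Scn4b (ENSMUSG00000046480) lies on chromosome 9 from 45138395 to 45154152 on the plus strand, with Scn2b as its nearest protein-coding neighbour. Scn4a (ENSMUSG00000001027) and Cacna1g (ENSMUSG00000020866) are both on the minus strand of chromosome 11, from 106318592 to 106353288 and from 94408391 to 94474198. Cacna1c (ENSMUSG00000051331) takes up 610 kb of the minus strand of chromosome 6, from 118587240 to 119196890. Cacnb2 (ENSMUSG00000057914) runs from 14603088 to 14987908 on the plus strand of chromosome 2, Cacna2d1 (ENSMUSG00000040118) from 15934691 to 16374511 on the plus strand of chromosome 5, and Hcn2 (ENSMUSG00000020331) from 79716634 to 79736108 on the plus strand of chromosome 10. No exon of another gene overlapped the merged exons of Scn4b, Scn4a, Cacna1c, Cacna1g, Cacna2d1 or Hcn2. In Cacnb2, 7.32% of the exonic bases are also covered by genes of the other strand, and the sources used here do not say whether strand was used in counting.

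The libraries were those of heart muscle cells with some of other types. All 8 cardiomyocyte markers were measured, led by Ttn, and their normalized counts summed to 47922, 47572 and 49402 in the PBS libraries and to 43056, 41237 and 41456 with mLIF. Under mOSM they summed to 34397, 33380 and 37353, and under hlOSM to 34186, 36611 and 35671, all below those with mLIF. With limma, 6 of the 8 were lower with mLIF than with PBS, 7 with mOSM and 7 with hlOSM, beside 4.44%, 15.8% and 19.8% of all genes tested. In bulk RNA, fewer cells of a type and less RNA per cell cannot be told apart. Of the 8 skeletal muscle markers, Tnnt3 never exceeded 4 and Myod1 never exceeded 2, and the other 6 were not found by symbol in the table. The fibroblast list (7 of 7 measured, led by Col3a1) summed to 2308 ± 136 under PBS, 2108 ± 74.2 under mLIF, 2523 ± 255 under mOSM and 2364 ± 112 under hlOSM (SD, n = 3). These sums hide changes in both directions, since with hlOSM 5 of the 7 fell and 2 rose (19.8% and 18.2% of all genes), with Col1a2 at −0.98 and Col3a1 at 1.04 on the log2 scale.

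Markers of other cell types differed as well. The mural cell list (5 of 5, led by Cspg4) summed to 840, 884 and 1033 in PBS, 836, 793 and 822 in mLIF, 669, 606 and 633 in mOSM and 565, 587 and 575 in hlOSM. The endothelial list (6 of 6, led by Kdr) summed to 1054, 1086 and 1045 in PBS, 1068, 1025 and 1070 in mLIF, 1283, 1387 and 1445 in mOSM and 1374, 1265 and 1394 in hlOSM. Both OSM forms thus gave lower mural and higher endothelial sums than PBS or mLIF in every library. The leukocyte list (5 of 6, led by Cd68) averaged 128 ± 9.64 under PBS, 142 ± 10.5 under mLIF, 202 ± 20.0 under mOSM and 199 ± 41.1 under hlOSM, with Cd79a below 10 throughout. Of its 4 tested genes Cd68 alone rose, and Ptprc, Adgre1 and Csf1r did not pass with any cytokine, so the sum follows a single gene. The atrial list (4 of 4, led by Nppa, with Sln and Myl7 below 10 throughout) averaged 238 ± 3.21, 211 ± 14.7, 193 ± 24.2 and 174 ± 0.577 in the same order. The nodal list (4 of 5, led by Tbx18, with Isl1 at 0 or 1) averaged 192 ± 24.2, 167 ± 7.55, 166 ± 1.00 and 153 ± 3.46. The neuron and glia list (4 of 5, led by Tubb3, with Sox10 and Prph below 10 throughout) averaged 62.3 ± 4.04, 52.7 ± 7.51, 51.3 ± 7.57 and 43.3 ± 9.50. The part of these differences in the channel results was not tested.

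Against PBS, 3 of the 7 members fell under mLIF, 6 under mOSM and 6 under hlOSM, and none rose. These are counts at a Benjamini-Hochberg adjusted p under 0.05 by limma on log2(normalized count + 1), adjusted over all genes tested. With replicate number as a block they are 3, 5 and 4. Calls among all genes, in either direction, went from 1307, 4120 and 5002 to 784, 3330 and 4120 with the block. Leaving out 1 library gave 1 to 4 members lower with mLIF, 4 to 6 with mOSM and 5 to 6 with hlOSM. Calls among all genes then ranged from 502 to 1625, 3217 to 4313 and 4059 to 5300. In the fit of all libraries without the block, 4.44% of all genes were lower and 5.47% higher with mLIF. The shares were 15.8% lower and 15.4% higher with mOSM, and 19.8% lower and 18.2% higher with hlOSM. The median log2 fold change of the members was −0.24 under mLIF, −0.58 under mOSM and −0.78 under hlOSM, where that of all genes lay between −0.01 and 0.00. The libraries of a cytokine and PBS did not overlap for 4, 6 and 5 members, beside 30.3%, 40.1% and 47.0% of all genes. The comparisons share their PBS libraries and are not independent. In the F test for any difference between the conditions, which 34.2% of the genes passed, Cacna1g was the member that did not pass (adjusted p = 0.0953), and it passed in 1 of 19 alternatives, without hlOSM replicate 3 (0.0360). Cacna2d1 passed (adjusted p = 0.0374) but did not in 10 of 20 alternatives, with values up to 0.149 and 0.0693 with the replicate block. Hcn2 passed (adjusted p = 0.0253) but did not in 5 of 20, the highest value being 0.115 with the block.

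Scn4b, the auxiliary sodium channel subunit, had normalized counts of 270, 290 and 351 in PBS, 195, 205 and 200 in mLIF, 156, 133 and 164 in mOSM and 122, 124 and 98 in hlOSM. No library of any condition reached into the range of another. The log2 fold change against PBS for mLIF was −0.59 (95% interval −0.80 to −0.38, adjusted p = 0.000882), and that for mOSM was −1.0 (−1.21 to −0.79, adjusted p = 1.14e-07). For hlOSM it reached −1.40 (−1.61 to −1.18, adjusted p = 4.63e-10). Its mean with hlOSM was 37.8% of that in PBS, the lowest share among the 7 members, and 1.44% of all genes had a lower log2 fold change in this comparison.

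Scn4a, the pore of the skeletal muscle channel, was counted at 77, 70 and 86 in PBS and at 53, 80 and 66 with mLIF, which overlap. It stood at 59, 41 and 47 with mOSM and at 34 in each of the 3 hlOSM libraries, all below PBS. The difference from PBS was −0.24 on the log2 scale with mLIF (−0.55 to 0.08, adjusted p = 0.332) and did not pass. Leaving out 1 library moved this difference between −0.38 and −0.09, and it passed in 0 of 21 alternatives. Scn4a fell with mOSM by 0.66 on the log2 scale (adjusted p = 0.00176) and with hlOSM by 1.16 (adjusted p = 2.44e-06). On the scale of the summed cardiomyocyte markers, mostly Ttn and given below, the mOSM libraries overlapped PBS and the hlOSM libraries lay below it. The identical rounded values with hlOSM give an SD of 0, and the test used the spread that limma estimates across all conditions and genes.

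Cacna1c, the pore of the L-type calcium channel, had normalized counts of 1236, 1286 and 1355 in PBS, 1145, 1116 and 1089 in mLIF, 895, 808 and 890 in mOSM and 713, 769 and 773 in hlOSM. As for Scn4b, the 4 conditions did not overlap. On the scale of the summed cardiomyocyte markers, mostly Ttn and given below, the mLIF libraries lay within the PBS range and the mOSM libraries overlapped it. The hlOSM libraries lay below PBS there too. With mOSM the mean of Cacna1c was still a lower share of PBS than that of each single marker. The log2 fold change was −0.21 (−0.32 to −0.10, adjusted p = 0.0185) for mLIF and −0.58 (−0.69 to −0.47, adjusted p = 3.91e-08) for mOSM. For hlOSM it was −0.78 (−0.90 to −0.67, adjusted p = 2.80e-10). The means were 86.4%, 66.9% and 58.2% of PBS. The mLIF call did not hold without PBS replicate 3 (−0.18, adjusted p = 0.105) or without mLIF replicate 2 or 3 (adjusted p = 0.0588 and 0.0934), over a range of 0.00559 to 0.105 in the 21 alternatives.

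Cacnb2, the cytoplasmic subunit that brings the L-type channel to the membrane, stood at 329, 293 and 388 in PBS, 258, 266 and 276 in mLIF, 203, 185 and 181 in mOSM and 161, 190 and 161 in hlOSM. Each cytokine lay below PBS in every library, and the mOSM and hlOSM libraries overlapped. On the scale of the summed cardiomyocyte markers, mostly Ttn and given below, the mLIF libraries overlapped PBS and those of both OSM forms lay below it. On the log2 scale it fell by 0.33 (−0.51 to −0.14, adjusted p = 0.0229) under mLIF and by 0.82 under mOSM (adjusted p = 2.91e-07). With hlOSM it fell by 0.97 (−1.16 to −0.79, adjusted p = 1.62e-08). With mLIF the call was lost without PBS replicate 3 (−0.22, adjusted p = 0.159) and without mLIF replicate 1, 2 or 3 (adjusted p from 0.0584 to 0.0819), in a range from 0.00715 to 0.159 over the alternatives.

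Cacna2d1, the extracellular subunit and the most abundant member per kb, moved least among the members that passed. Its normalized counts were 1574, 1449 and 1587 in PBS, 1472, 1471 and 1409 in mLIF, 1309, 1369 and 1379 in mOSM and 1336, 1370 and 1475 in hlOSM. Only the mOSM libraries all lay below PBS. Set against the summed cardiomyocyte markers, mostly Ttn, as given below, every cytokine library lay above PBS instead. It fell by 0.18 with mOSM (adjusted p = 0.00965) and by 0.14 with hlOSM (adjusted p = 0.0374) on the log2 scale, and the difference with mLIF was −0.08 (−0.19 to 0.03, adjusted p = 0.333). The hlOSM call was lost in 8 of the 21 alternatives (adjusted p 0.0118 to 0.147), among them the block by replicate number (0.0603) and quantile normalization (−0.07, 0.133), and the mOSM call without PBS replicate 3 (0.0531, range 0.00498 to 0.0531).

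Cacna1g, the T-type pore, was near the filter, at 18, 19 and 33 in PBS, 9, 12 and 15 in mLIF, 22, 16 and 17 in mOSM and 20, 22 and 10 in hlOSM. The mLIF libraries were all below those with PBS and those with mOSM, whereas the hlOSM libraries overlapped those of every other condition. With mLIF the log2 fold change was −0.88 (−1.47 to −0.29, adjusted p = 0.0520), which did not pass. It passed in 5 of 20 alternatives, which gave adjusted p from 0.0259 to 0.266, among them the fits without PBS replicate 1 (0.0416) and without hlOSM replicate 3 (0.0259). For mOSM the log2 fold change was −0.29 (−0.88 to 0.30, adjusted p = 0.474), and for hlOSM −0.43 (−1.02 to 0.16, adjusted p = 0.252), intervals that span more than a log2 unit. Leaving out 1 library moved the value for mOSM between −0.44 and −0.02 and that for hlOSM between −0.63 and −0.09.

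Hcn2, a pore of the pacemaker current, was counted at 56, 53 and 55 in PBS, 49, 54 and 54 in mLIF, 43, 42 and 45 in mOSM and 42, 40 and 42 in hlOSM. Both OSM forms lay below PBS and below mLIF in every library. Set against the summed cardiomyocyte markers, mostly Ttn, as given below, every mOSM library lay above PBS and the hlOSM libraries overlapped it. It fell by 0.33 with mOSM (adjusted p = 0.0415) and by 0.40 with hlOSM (adjusted p = 0.0127) on the log2 scale, and the difference with mLIF was −0.06 (−0.31 to 0.19, adjusted p = 0.790). Neither call held when replicate number was a block (adjusted p = 0.122 for mOSM, 0.0506 for hlOSM). The mOSM call was lost in 9 of 21 alternatives, which gave adjusted p from 0.0130 to 0.122, among them those without PBS replicate 1, 2 or 3, mLIF replicate 2, or mOSM replicate 1 or 2. For hlOSM the block was the single alternative that lost it, in a range from 0.00421 to 0.0506.

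**Figure D1:**
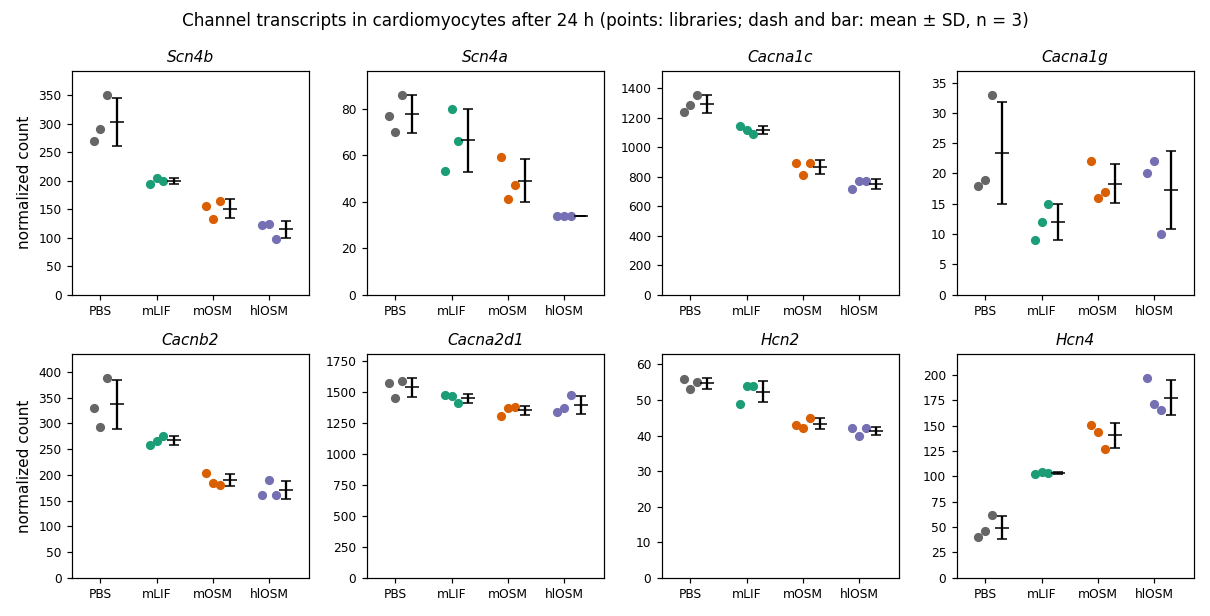
Normalized counts (vertical axes, each from 0) of the 7 members and of Hcn4 in the 4 conditions (horizontal axes), with a point for each library and a dash and bar for the mean ± SD of 3 libraries. Scn4b goes from a mean of 304 in PBS to 115 with hlOSM, Cacna2d1 from 1537 to 1394, and Hcn4 in the other direction from 49.3 to 178.

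The cytokines, which engage different receptors, were also compared with each other. Of the 7 members, 3 were lower with mOSM than with mLIF, namely Scn4b (−0.41, adjusted p = 0.00899), Cacna1c (−0.37, adjusted p = 5.73e-05) and Cacnb2 (−0.49, adjusted p = 0.000533), as log2 fold changes by limma. Of all genes, 5.76% were lower and 6.05% higher in this comparison, and the libraries did not overlap for 6 members and for 27.1% of the genes. The Scn4b call was lost without mOSM replicate 2 (−0.32, adjusted p = 0.0611, range 0.00150 to 0.0611). Scn4a, at −0.43 (−0.74 to −0.11, adjusted p = 0.0731), passed without mLIF replicate 1 (0.0250) or mOSM replicate 1 (0.0275), in a range from 0.0250 to 0.355.

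With hlOSM, 4 members were lower than with mLIF, beside 9.22% of all genes lower and 7.42% higher. Scn4b differed by −0.80 (adjusted p = 5.74e-06), Scn4a by −0.92 (adjusted p = 0.000131), Cacna1c by −0.57 (adjusted p = 1.15e-07) and Cacnb2 by −0.64 (adjusted p = 1.74e-05). All 4 calls held in the 21 alternatives. Hcn2 differed by −0.33 (−0.58 to −0.08, adjusted p = 0.0632) and passed under the rescalings by trimmed mean of M-values (0.0462) and by quantiles (0.0414), over a range of 0.0414 to 0.182. The libraries did not overlap for 5 members and 31.7% of all genes.

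Between hlOSM and mOSM no member passed, and 3 had an unadjusted p under 0.05, as did 987 of the 13184 genes. Over all genes limma called 0.106% lower and 0% higher with hlOSM. The log2 differences were −0.40 (−0.61 to −0.18, adjusted p = 0.188) for Scn4b, −0.50 (−0.81 to −0.18, adjusted p = 0.378) for Scn4a and −0.20 (−0.32 to −0.09, adjusted p = 0.264) for Cacna1c. In these 3 genes every hlOSM library was below every mOSM library, as the libraries were apart in 9.74% of all genes. For the other 4 members the libraries overlapped, and the intervals were −0.34 to 0.03 for Cacnb2, −0.07 to 0.15 for Cacna2d1, −0.32 to 0.18 for Hcn2 and −0.73 to 0.46 for Cacna1g.

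The remaining channel genes and their partners give the setting of these changes. Of 52 such genes in 6 lists, 41 were in the table and 24 were tested, of which 1 fell and 2 rose with mLIF, 9 fell and 3 rose with mOSM, and 9 fell and 3 rose with hlOSM. Over all genes the shares were 4.44% and 5.47%, 15.8% and 15.4%, and 19.8% and 18.2%. The median log2 fold changes of the listed genes were −0.11, −0.16 and −0.16 in the same order. Scn7a, a sodium-sensing relative of the pore-forming sodium channel subunits, averaged 64.3 ± 8.33 under PBS, 60.3 ± 4.04 under mLIF, 27.3 ± 2.52 under mOSM and 21.7 ± 1.53 under hlOSM (SD, n = 3), with log2 fold changes of −1.20 and −1.52 for mOSM and hlOSM by limma (adjusted p = 1.16e-06 and 2.79e-08). Scn2b, next to Scn4b on the chromosome, was at 0 in 11 of the 12 libraries and at 1 in the other.

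Of the other pore-forming calcium channel subunits, 7 of 8 were in the table and 4 were tested. With mOSM all 4 passed as lower, 1 of them (Cacna1d) in 9 of 20 alternatives, with hlOSM Cacna1a and Cacna1h, and with mLIF none. Of all genes 15.8%, 19.8% and 4.44% were lower in the same order. The T-type gene Cacna1h had 24, 22 and 29 in PBS, 14, 14 and 22 in mLIF, 15, 8 and 10 in mOSM and 8, 17 and 8 in hlOSM. Its log2 fold change was −0.58 (−1.18 to 0.02, adjusted p = 0.212) for mLIF. It fell under mOSM (−1.15, adjusted p = 0.00398) and hlOSM (−1.19, adjusted p = 0.00245). Cacna1a, the P/Q-type pore known from neurons, fell by 0.62 and 0.53 with mOSM and hlOSM (adjusted p = 0.00570 and 0.0132), and the hlOSM call was lost without PBS replicate 3 (0.0718) or hlOSM replicate 3 (0.0595). Cacna1s, the L-type pore of skeletal muscle, fell by 0.45 with mOSM (adjusted p = 0.00337), and was −0.22 with hlOSM (−0.45 to 0.02, adjusted p = 0.134). Cacna1d, an L-type pore of pacemaker tissue, stood at 17, 12 and 24 in PBS and 8, 12 and 10 with mOSM, so that the libraries touched at 12. Its fall of 0.73 with mOSM (adjusted p = 0.0440) was lost in 11 alternatives, the replicate block among them (0.101), and without PBS replicate 3 it was −0.49 (0.240), the highest adjusted p of its range.

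Of the other auxiliary calcium channel subunits, 8 of 14 were in the table and 4 were tested. Cacnb4 averaged 15.0 ± 2.00 under PBS, 8 ± 1.73 under mLIF, 5.33 ± 1.15 under mOSM and 5 ± 1 under hlOSM (SD, n = 3). It reached 10 in no cytokine library and passed the filter through PBS alone, where it was high, so the filter itself favours a fall in this gene. Its values are therefore given from the fit with no filter, where it fell under mOSM (log2 fold change −1.35, adjusted p = 0.00407) and hlOSM (−1.42, adjusted p = 0.00205) and the difference with mLIF, −0.84, did not pass (adjusted p = 0.142). It is 1 of the 9 listed genes counted above as fallen with each OSM form. Cacnb3 fell by 0.62 with mOSM (adjusted p = 0.0161) and by 0.55 with hlOSM (adjusted p = 0.0263), and both calls were lost in some alternatives. The hlOSM call was lost in 5 of 20 alternatives (adjusted p up to 0.0843), the replicate block among them (0.0662), and the mOSM call in 4 of 20 (up to 0.0773). Cacnb1 and Cacng7 did not pass with any cytokine. Cacna2d4, a relative of Cacna2d1, never exceeded 1.

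Of the other HCN channels, Hcn4 rose. Hcn4, the pacemaker channel that marks the sinus node, had 40, 46 and 62 in PBS, 102, 104 and 103 in mLIF, 151, 144 and 127 in mOSM and 197, 171 and 165 in hlOSM, with no overlap between any of the conditions. It rose by 1.07 (0.82 to 1.32, adjusted p = 1.73e-05) on the log2 scale under mLIF and by 1.51 (1.26 to 1.77, adjusted p = 3.39e-09) under mOSM. Under hlOSM it rose by 1.85 (1.59 to 2.10, adjusted p = 1.07e-10), and these calls held in the 21 alternatives. Its mean with hlOSM was 360% of that in PBS, while the sum of the nodal markers was lower. Of the 3 nodal genes tested, Tbx18 alone passed as lower with hlOSM (−0.41, adjusted p = 0.00554 by limma), beside 19.8% of all genes. Tbx3 and Shox2 did not pass. Hcn3 never exceeded 2.

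**Figure D2:**
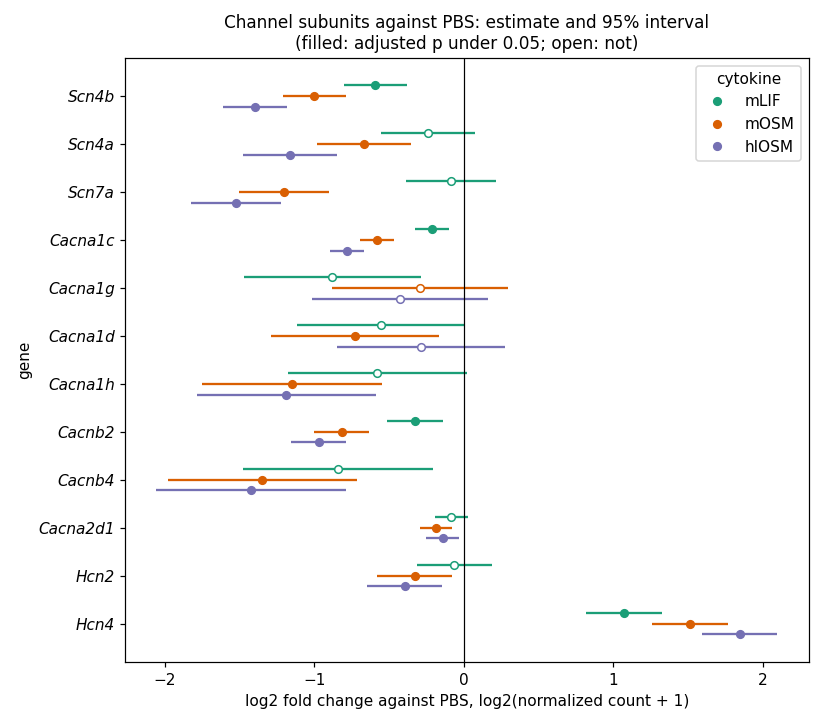
Log2 fold changes against PBS (horizontal axis, on log2(normalized count + 1)) of the 7 members and 5 related genes (vertical axis), with a point for the limma estimate of each cytokine, filled where the adjusted p is under 0.05, and a line for the 95% interval. Scn4b, Scn4a, Cacna1c and Cacnb2 lie left of 0 and reach −1.40, −1.16, −0.78 and −0.97 with hlOSM, whereas Hcn4 reaches 1.85. Cacnb4 is drawn from the fit with the filter, which it passed through PBS alone, so the filter favours a fall in it.

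Of 18 partners and regulators, 17 were in the table and 14 were tested. With mLIF 1 fell and 1 rose, with mOSM 2 fell and 2 rose, and with hlOSM 4 fell and 2 rose. In the same order of cytokines 4.44%, 15.8% and 19.8% of all genes fell, and 5.47%, 15.4% and 18.2% rose. No test was run on the list. Both ankyrins, which anchor channels to the membrane skeleton, passed with each cytokine and in opposite directions. Ank2 averaged 1264 ± 85.4 under PBS, 1095 ± 26.2 under mLIF, 948 ± 45.4 under mOSM and 941 ± 26.2 under hlOSM, and Ank3 averaged 1590 ± 115, 1839 ± 98.7, 2032 ± 102 and 2152 ± 117 (SD, n = 3). Their log2 fold changes with hlOSM were −0.42 (adjusted p = 2.41e-06) and 0.44 (adjusted p = 4.62e-06). With mLIF they were −0.20 (adjusted p = 0.0208), lost in 4 of 21 alternatives with adjusted p up to 0.144, and 0.21 (adjusted p = 0.0274), lost in 2 with adjusted p up to 0.182. Cav3, the caveolin of muscle, rose by 0.23 with mOSM and by 0.26 with hlOSM (adjusted p = 0.00779 and 0.00240), and the mOSM call was lost without PBS replicate 2 (0.05035). Rem1, a small GTPase that inhibits L-type channels, fell from 29.0 ± 5.29 in PBS to 15.0 ± 2.00 with mOSM and 9.33 ± 1.53 with hlOSM (adjusted p = 0.00218 and 4.87e-06). Its relative Gem fell by 0.52 with hlOSM (adjusted p = 0.00293). Rrad, the most abundant of these GTPases, averaged 764 ± 12.9 under PBS and 840 ± 14.8 under hlOSM, without overlap, and the difference of 0.14 (0.02 to 0.26) did not pass (adjusted p = 0.06435). Calm2, a calmodulin gene, fell with hlOSM (−0.22, adjusted p = 0.0477), a call lost in 13 of 21 alternatives, with adjusted p from 0.0148 to 0.153 and 0.0770 with the replicate block. Calm3, another, did not pass.

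Because the subunits of a channel are combined in the cell, ratios of their normalized counts were taken within each library. A scaling factor common to all genes of a library cancels in them, but an effect subtracted gene by gene would not. The counts were not divided by length here, so the ratios compare conditions and do not give the proportions of the transcripts. The normalized count of Cacnb2 was 0.260 ± 0.0297 of that of Cacna1c under PBS, 0.239 ± 0.0141 under mLIF, 0.220 ± 0.0142 under mOSM and 0.227 ± 0.0194 under hlOSM (SD, n = 3). These ratios overlapped. The ratio of Cacna2d1 to Cacna1c was 1.19 ± 0.0752 under PBS, 1.30 ± 0.0169 under mLIF, 1.57 ± 0.117 under mOSM and 1.85 ± 0.0655 under hlOSM, and each condition lay above the one before in every library. The ratio of Hcn4 to Hcn2 was 0.903 ± 0.209, 1.97 ± 0.0957, 3.25 ± 0.376 and 4.30 ± 0.381 in the same order, without overlap between conditions. The ratios are given as values, and no test was run on them.

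Since the cardiomyocyte markers also differed, the members were set against their sum in the same library, as normalized counts per 1000 summed marker counts, of which Ttn gave 67.3%. This measure was chosen after the values were seen and mostly follows Ttn, whose mean with mOSM was 69.6% of PBS. The other markers then stood at 68.9% (Pln), 71.2% (Tnnt2), 78.9% (Myh6), 81.4% (Ryr2), 83.3% (Tnni3), 87.9% (Actc1) and 88.6% (Myl2). Cacna2d1 (88.0%) and Hcn2 (79.3%) lay among these shares, whereas Cacna1c (66.9%) was below each marker. With mLIF and hlOSM Cacna2d1 (94.4% and 90.7%) was above each marker. Ratios to single markers were not taken. Scn4b stood at 6.28 ± 0.752 under PBS, 4.77 ± 0.225 under mLIF, 4.30 ± 0.286 under mOSM and 3.23 ± 0.431 under hlOSM (SD, n = 3), and every library of a cytokine was below PBS. Cacna1c was 26.8 ± 0.854 under PBS, 26.6 ± 0.399 under mLIF, 24.7 ± 1.17 under mOSM and 21.2 ± 0.433 under hlOSM. The hlOSM libraries, between 20.9 and 21.7, lay below all others, whereas the mLIF range was within that of PBS and the mOSM range reached into it. Cacnb2 was 6.96 ± 0.851 under PBS, 6.37 ± 0.341 under mLIF, 5.43 ± 0.537 under mOSM and 4.80 ± 0.348 under hlOSM. Its mLIF libraries overlapped PBS on this scale, and those of both OSM forms lay below PBS. Scn4a was 1.61 ± 0.135, 1.59 ± 0.355, 1.40 ± 0.273 and 0.959 ± 0.0333 in the same order. Its mLIF and mOSM libraries overlapped PBS, so that the fall with mOSM does not separate on this scale, and its hlOSM libraries lay below. Hcn2 was 1.13 ± 0.0317, 1.25 ± 0.0971, 1.24 ± 0.0288 and 1.17 ± 0.0687. Its mOSM libraries all lay above PBS here, opposite to the fall of its normalized counts, and those of mLIF and hlOSM overlapped PBS. Cacna2d1 was 31.8 ± 1.22, 34.6 ± 0.920, 38.7 ± 2.11 and 39.3 ± 1.97, with every cytokine library above PBS, against the direction of its normalized counts. Cacna1g was 0.481 ± 0.162, 0.287 ± 0.0765, 0.525 ± 0.10025 and 0.489 ± 0.181, with the mLIF libraries below PBS and the others overlapping it.

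The genes whose log2 values followed each member most closely over the 12 libraries were found by Pearson's r among the 8669 or 8670 genes that averaged 50 or more. This is a description, since the libraries fall into 4 conditions that r follows. For Scn4b they were Adgrl1 (r = 0.992) and Efcab2 (r = 0.991), for Scn4a Wdtc1 (0.964) and Rxra (0.962), for Cacna1c Pfkfb2 (0.990) and B3galt2 (0.989). For Cacnb2 they were Acacb (0.991) and Zfpm2 (0.988), for Cacna2d1 Jam2 (0.960) and Etfa (0.950), for Hcn2 Anln (0.980) and Abca9 (0.978), and for Cacna1g, less closely, Zfp469 (0.928) and Cep85 (0.891). Pfkfb2, which makes the activator of phosphofructokinase, averaged 177 under PBS, 128 under mLIF, 75.7 under mOSM and 61.7 under hlOSM. Acacb, the acetyl-CoA carboxylase of muscle, averaged 1142, 984, 852 and 785, and Zfpm2, a cofactor of GATA transcription factors in the heart, 374, 315, 257 and 244.

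The cytokines signal through STAT transcription factors, and the promoters of the members were searched for the STAT motif TTCNNNGAA, the E-box CACGTG and the GC box GGGCGG, on both strands. Windows of 300 bases, from 250 before to 50 after a RefSeq transcript start (GRCm38.p6), were at hand for 6 of the 7 members, and not for Cacna1g. The STAT motif is in 8.30% of the 32851 windows of all genes, the E-box in 7.15% and the GC box in 35.7%. Of the 9 windows of the members, 1 holds a STAT match and none the E-box, and the GC box is in 1 of the 3 windows of Cacna1c, 1 of the 2 of Cacnb2 and the windows of Cacna2d1 and Hcn2. The single STAT match is 115 bases before an internal start of Cacna1c, at chr6:118758051-118758119 on the minus strand with 30 bases on each side, outside the exons of the gene in GENCODE M21. A match is a description of the letters and not a site. It is printed here with the match in capitals.
Cacna1c: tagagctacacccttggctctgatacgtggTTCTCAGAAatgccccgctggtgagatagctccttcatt

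Of the 9 windows, 6 had more GC than the median of 52.7% over all genes. They were a window of Cacna1c (81.3%, with 6 GC boxes), that of Cacna2d1 (80.0%, 7), that of Hcn2 (72.3%, 3), a window of Cacnb2 (71.7%, 1) and those of Scn4b (66.3%) and Scn4a (63%), which hold no GC box. The other windows of Cacna1c had 51.3% each and that of Cacnb2 44%. For Cacna2d1 and Hcn2 the 100 bases before the start lie outside the exons of the gene and are printed to show how densely the boxes stand. They are chr5:15934591-15934690 and chr10:79716534-79716633, both on the plus strand, with the matches of either strand in capitals, which in part run into each other. The last capitals of Cacna2d1 are 5 of the 6 bases of a match that runs past the start.
Cacna2d1: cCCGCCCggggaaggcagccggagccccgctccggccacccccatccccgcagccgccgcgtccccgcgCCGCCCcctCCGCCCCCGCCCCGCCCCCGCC
Hcn2: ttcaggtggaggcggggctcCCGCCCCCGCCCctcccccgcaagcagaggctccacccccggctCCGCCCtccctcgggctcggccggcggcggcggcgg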

How the data were processed

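Per the submitters' notes and the study's methods, the authors trimmed the reads, aligned them with STAR 2.7.7a to mm10, counted them per gene with featureCounts 1.6.5, normalized between libraries by a method not given in the sources used here, and rounded. The values deposited by the authors are thus scores, here called normalized counts, and no reads can be counted from them. Conditions and replicate numbers came from the sample titles. Differences were tested two-sided with limma 3.58.1 in R 4.3.3 (lmFit, eBayes with trend) on log2(normalized count + 1), in 1 fit of 12 libraries and 4 conditions, over 13184 genes with at least 10 in 3 libraries, at a Benjamini-Hochberg adjusted p under 0.05. The code was tested on simulated data. Named genes are the members, Cacna1d, Cacna1h and Hcn4, genes of the channel lists that passed against PBS, the 2 genes most like each member and the leading gene of each marker list; others were named after their values were seen, and some genes of the channel lists are not reported here. Members and lists were chosen with earlier results of these data known. Exons come from GENCODE M21, where 22676 of 22915 genes had the table's bounds (Cacna1c did not). Alternatives changed the pseudocount (0.1, 5), filter (none, 50), scaling, variance model, libraries fitted and block, or left out a library.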

Additional observations from a re-analysis of the deposited data

How the results depend on the processing

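Of the 42 results for members (7 genes in 6 comparisons), 22 were called, and 15 of these were called in every one of the 9 alternative settings that gave a value and with each of the 12 libraries left out in turn. Of the 20 not called, 17 were called in none. Cacna1g has no value under the filter at 50. With the replicate block, the calls for mLIF against PBS went from 1307 genes to 784, and members lower stayed at 3. Against PBS, members lower with the block went from 6 to 5 for mOSM and from 6 to 4 for hlOSM. Calls among all genes went from 4120 to 3330 and from 5002 to 4120 in these comparisons. For hlOSM against mOSM the 14 calls became 2 with the block, 6 with no filter, 8 with trimmed-mean rescaling and 0 in the fit of only the 6 libraries compared, and no member was among them. The causes were not tested. Leaving out a library gave 502 to 1625 calls for mLIF against PBS, with 1 to 4 members lower, and 1 to 17 for hlOSM against mOSM. The lowest count for members was reached without PBS replicate 3, mLIF replicate 2 or mLIF replicate 3. Over the libraries left out, the sign of log2 fold changes that were not called turned with mLIF against PBS from −0.189 to 0.0291 for Cacna1a and −0.0817 to 0.0798 for Cacnb3, and with hlOSM against mOSM from −0.334 to 0.198 for Cacna1g. The same-numbered libraries of different conditions were correlated between −0.41 and −0.15 in their deviations from the condition means (18 pairs) and differently numbered ones between 0.00 and 0.33 (36 pairs). The replicate number held 1.70% of the variance within conditions, although it takes 2 of 8 residual degrees of freedom, and 0 of 12 libraries correlated best with its own number. The labels give the libraries only a number in common. All 18 same-numbered pairs were below 0 and all 36 others above it, and of the 216 numberings of the libraries within conditions none held a smaller share than that of the labels, the next being 10.4%. Values from which the mean of each number has been subtracted have this pattern, and no source used here names such a step. Where it was taken, the fits without the block count 8 residual degrees of freedom where 6 remain, and their adjusted p tend to be too small. This does not hold for each value. For hlOSM against PBS the limma adjusted p was lower with the block for Scn4b (4.07e-10 against 4.63e-10) and Hcn4 (9.76e-11 against 1.07e-10). Neither rescaling moved the median of all log2 fold changes by more than 0.01. The reads behind single values are unknown, so no counting error is given.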

Other observations

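With 3 libraries per condition and unknown numbers of reads behind single values, the genes near the filter, Cacna1g, Cacna1d, Cacna1h and Cacnb4, have intervals wider than a log2 unit with each cytokine, so that a missed threshold there sets no small bound. Levels per kb use the merged exons of all annotated transcripts, which are longer than any single one, and splice forms such as those of Cacna1c and Cacnb2 cannot be seen in values per gene. The table holds transcripts, and no channel protein or current was measured here. Effects of the cytokines on cells other than cardiomyocytes in the culture cannot be told apart from those on cardiomyocytes.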
